A study of Mus musculus with 3 samples.

Results

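The 6 genes described here encode ligands of the tumor necrosis factor (TNF) superfamily that lymphocytes make: Tnf, the lymphotoxin genes Lta and Ltb, Tnfsf10 (TRAIL), Fasl (Fas ligand) and Tnfsf14 (LIGHT). They were taken by symbol from the 25906 genes listed in each count matrix, and all 6 were found. Their transcripts were counted in natural killer (NK) cells sorted as live NK1.1+NKp46+ cells from the lung and the blood of wild-type female mice aged 9 weeks. The study's sort also left out cells with lineage markers, among them markers of T and B cells. Of the libraries, 1 came from naive mice. The others came from mice given an intravenous dose of 100000 PyMT mammary tumor cells 6 h or 14 days before sacrifice. The labels and the study's single-cell methods give this number, while a figure legend of the study gives a larger one. Lung and blood cells of a time point shared 1 library and were told apart by a hashtag antibody. The methods name lung before blood and B0304 before B0306, and the tags were read in that order. Each of the 6 groups therefore rests on 1 library, in which the cells of a group's several mice cannot be told apart. No comparison was tested across animals, and every interval below is a 95% interval that covers counting error only. Time and library cannot be told apart.

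These ligands act by trimerizing on the cell surface or after release, and they bind receptors of the TNF receptor superfamily on neighboring cells. Fas ligand and TRAIL engage receptors with a death domain and start caspase-dependent killing, which NK cells use beside granule exocytosis. TNF acts through TNFR1 and TNFR2, and it can drive either NF-κB dependent inflammation or cell death. Lymphotoxin-α is secreted as a homotrimer or held on the membrane by lymphotoxin-β, and the membrane complex signals through LTβR on stromal and myeloid cells. LIGHT shares LTβR and also binds HVEM (Tnfrsf14). In naive mice TRAIL on resident group 1 innate lymphocytes and lymphotoxin-β on immature NK cells are well known, whereas Fas ligand is carried widely by mature NK cells.

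Ltb, Tnf and Lta lie next to each other within 10913 bases of chromosome 17 (build GRCm38). Ltb spans chr17:35194439-35196320 on the plus strand, Tnf chr17:35199381-35202007 and Lta chr17:35203165-35205351, both on the minus strand. Tnfsf14 is on the same chromosome at chr17:57189492-57194177, Tnfsf10 is at chr3:27317028-27342427 and Fasl at chr1:161780689-161788495. RefSeq promoters of build GRCm38.p6 (250 bases before to 50 after the start of transcription) were found for all 6 genes. The promoters of Ltb, Tnf and Tnfsf10, which stood highest in the 14-day lung, are shown. Lta also stood highest there, but its promoter is not shown. Capitals mark a match to the NF-κB consensus in Ltb and the TATA box (TATAAA) in Tnf, and the Tnfsf10 window held neither.

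Ltb, chr17:35194257-35194556, plus strand: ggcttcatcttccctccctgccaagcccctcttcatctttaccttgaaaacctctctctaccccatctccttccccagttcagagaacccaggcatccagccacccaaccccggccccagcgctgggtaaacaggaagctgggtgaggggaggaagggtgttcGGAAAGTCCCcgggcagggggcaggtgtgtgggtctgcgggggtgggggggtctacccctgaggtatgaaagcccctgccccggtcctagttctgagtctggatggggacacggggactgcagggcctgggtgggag
Tnf, chr17:35201958-35202257, minus strand: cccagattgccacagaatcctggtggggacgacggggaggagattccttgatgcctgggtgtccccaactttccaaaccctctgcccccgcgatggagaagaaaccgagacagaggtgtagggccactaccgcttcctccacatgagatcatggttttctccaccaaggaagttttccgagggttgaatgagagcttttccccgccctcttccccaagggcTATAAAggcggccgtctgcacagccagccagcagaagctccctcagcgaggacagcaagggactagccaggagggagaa
Tnfsf10, chr3:27316827-27317126, plus strand: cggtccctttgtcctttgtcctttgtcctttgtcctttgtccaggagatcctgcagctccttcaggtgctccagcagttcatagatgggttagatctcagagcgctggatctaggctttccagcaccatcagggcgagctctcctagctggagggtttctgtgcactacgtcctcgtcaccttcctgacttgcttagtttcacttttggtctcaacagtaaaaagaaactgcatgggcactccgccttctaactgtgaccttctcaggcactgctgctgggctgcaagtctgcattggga

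Both strands of each window were searched for 6 motifs, and matches may overlap. An NF-κB consensus match was present in 1 of the 6 promoters, that of Ltb, at positions -87 to -78 from the start site, and in 8.46% of all 32851 promoters of this length. The TATA box was found for Tnf (-29 to -24) and Lta (-167 to -162), against 13.6% of all promoters. The short core GGAAA of NFAT sites was present for all 6 genes but also in 61.3% of all promoters, and in Ltb it lies within the NF-κB match. An AP-1 site (TGANTCA, 7.81% of all promoters) was found only for Tnfsf14, at -160 to -154. Neither the T-box motif TCACACC (3.98% of all promoters) nor the interferon response core GAAANNGAA (8.56%) was present in any of the 6 windows. These matches describe the letters of the windows and no more.

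Across the 6 groups, 21113 cells were kept, from 2069 (14-day blood) to 4680 (6 h lung) a group. The summed depth ran from 16936897 to 35922737 unique molecular identifiers (UMIs), and the median from 5909.5 to 7524 UMIs a cell. The hashtag rule left out 2.08% to 4.08% of kept barcodes, and pairs of libraries shared 7 to 16 kept barcodes. All 8 NK markers were present in every group, with a summed level of 7146 to 10330 CPM, counts scaled to a total of 1000000 UMIs in the group. T cell markers summed to 31.6 to 58.1 CPM. Myeloid genes summed to 111 to 204 CPM, with the highest sum in the 14-day blood. Of the 4 epithelial or tumor genes, none reached 5 CPM in any group. Markers of ILC1, a resident relative of NK cells, summed to 42.4 to 52.1 CPM in the naive and 6 h groups and to 141 and 102 CPM in 14-day lung and blood. The genes of this list were uneven. In naive and 14-day lung, Itga1 had 14.5 and 70.8 CPM, Tmem176b 2.73 and 14.8 CPM and Cxcr6 3.45 and 4.72 CPM.

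The ligands split into a set that was highest in the 14-day lung and a set that was not. Tnf, which encodes the founding cytokine of the family, had 1.58 CPM in naive lung (1.11 to 2.17), 1.73 CPM in 6 h lung (1.32 to 2.21) and 8.16 CPM in 14-day lung (7.14 to 9.29). In blood the level of Tnf was 1.77 CPM in naive, 5.12 CPM in 6 h and 2.78 CPM in 14-day cells. Tnf was thus highest in the 14-day lung and next in the 6 h blood, and the remaining 4 groups overlapped with their neighbors in rank. Ltb, whose product anchors lymphotoxin-α in the membrane, had 19.8 CPM in naive lung (18.1 to 21.7), 38.4 CPM in 6 h lung (36.4 to 40.5) and 131 CPM in 14-day lung (127 to 136). In blood Ltb stood at 37.0, 62.3 and 51.4 CPM in naive, 6 h and 14-day cells. The Ltb intervals of neighboring groups overlapped for a single pair, naive blood and 6 h lung.

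Tnfsf10, the gene of the death ligand TRAIL, had 5.79 CPM in naive lung (4.86 to 6.85), 6.29 CPM in 6 h lung (5.50 to 7.17) and 35.2 CPM in 14-day lung (33.0 to 37.4). Its blood levels were 9.37, 9.87 and 13.9 CPM in naive, 6 h and 14-day cells. Naive and 6 h cells overlapped within each tissue, and both 14-day groups lay above them. Lta was rare throughout. No Lta count was recorded in 23468585 UMIs of naive lung, which allows up to 0.157 CPM. The floor used for ratios, 3 counts, stood at 0.128 CPM there. The 14-day lung held 58 counts of Lta (2.06 CPM, 1.56 to 2.66). The other groups held 10, 8, 3 and 1 counts of Lta in naive blood, 6 h lung, 6 h blood and 14-day blood, and their intervals overlapped.

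**Figure D1:**
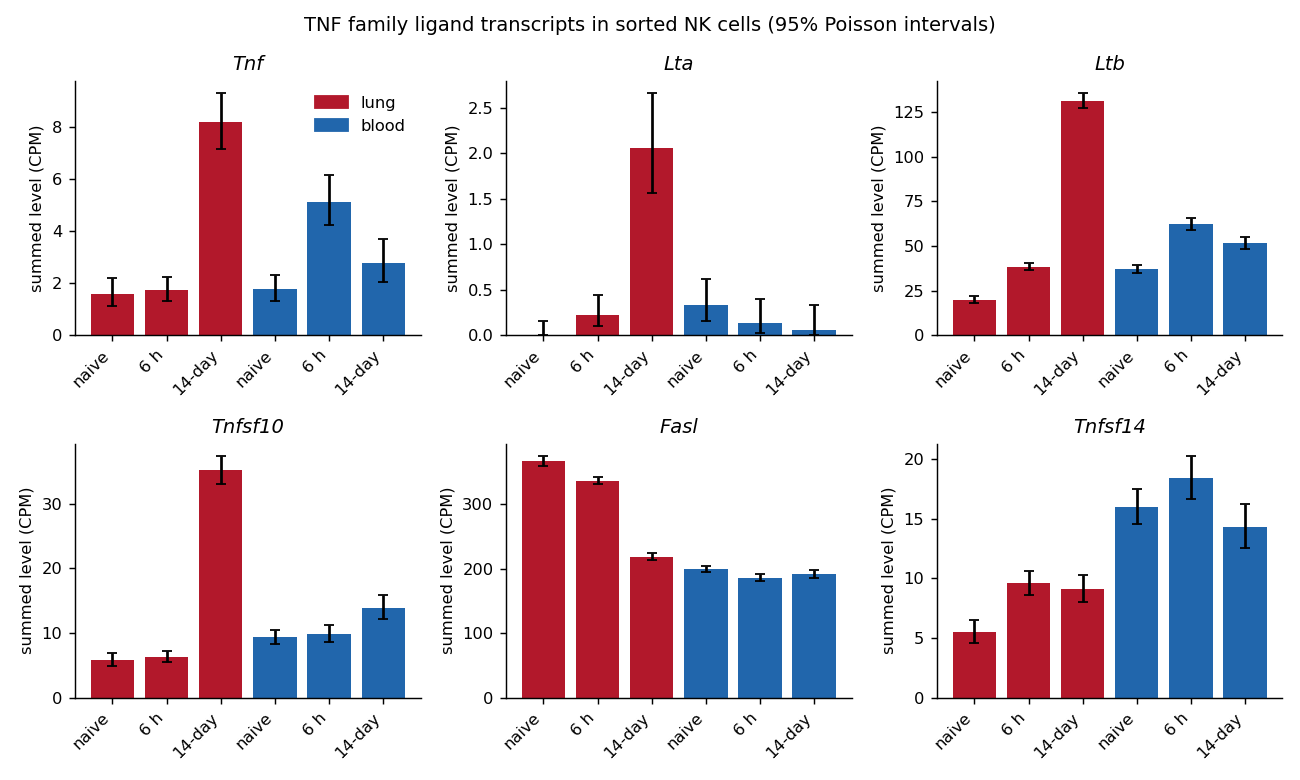
Summed level of each ligand in CPM (y axis, from 0) in the naive, 6 h and 14-day groups of lung (red) and blood (blue), with 95% Poisson intervals as error bars. Tnf, Lta, Ltb and Tnfsf10 had their highest bar in the 14-day lung (8.16, 2.06, 131 and 35.2 CPM), Fasl in the naive lung (368 CPM) and Tnfsf14 in the 6 h blood (18.4 CPM).

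The counting intervals of Fasl and Tnfsf14 lay apart between lung and blood at every time, in opposite directions. Fasl, which encodes the ligand of the death receptor Fas, stood at 368 CPM in naive lung (360.0 to 376), 337 CPM in 6 h lung (331 to 343) and 219 CPM in 14-day lung (214 to 225). In blood its level was 200.0, 187 and 192 CPM in naive, 6 h and 14-day cells. The interval of 14-day blood overlapped with both others, while those of naive and 6 h blood did not overlap. Fasl was therefore above every blood group in each lung group, with the smallest distance at 14 days. Tnfsf14, a costimulatory ligand for T and NK cells, had 5.50 CPM in naive lung, 9.58 CPM in 6 h lung and 9.09 CPM in 14-day lung. Its blood levels were 16.0, 18.4 and 14.3 CPM in naive, 6 h and 14-day cells, all above the lung groups without overlap of the intervals.

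To ask which ligands differed with time and tissue, groups were compared as log2 ratios of CPM, and a gene was counted where the ratio reached 1.5-fold and the higher group had at least 5 CPM. The median ratio of all genes was -0.10 to -0.11 for lung over blood, -0.18 for 14-day over naive lung and -0.15 for 14-day over naive blood. Lung at 14 days showed 4 ligands above naive lung and 1 below. Ltb was 6.64-fold higher, a log2 ratio of 2.73 (2.59 to 2.87). Tnfsf10 followed with a log2 ratio of 2.60 (2.34 to 2.87) and Tnf with 2.37 (1.87 to 2.91). Tnfsf14 was higher by a log2 ratio of 0.72 (0.41 to 1.04). Fasl was the ligand below, with a log2 ratio of -0.75 (-0.79 to -0.70). Lta was 16.1-fold higher with naive lung set to the floor of 3 counts, but it did not reach 5 CPM. In this comparison 5.27% of the 9333 genes at 5 CPM were higher and 11.4% were lower by the same rule, against 4 and 1 of the 5 ligands at that level. Measured from the median of all genes, the log2 ratios were 2.91 for Ltb, 2.78 for Tnfsf10, 2.55 for Tnf, 0.90 for Tnfsf14 and -0.57 for Fasl, the last of which was then under 1.5-fold. Fasl was likewise at -0.57 when totals left out mitochondrial and ribosomal protein genes, and Tnf was at 1.73 after each cell was thinned to 3000 UMIs.

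Over the same interval of time the ligands other than Lta had ratios smaller in size in blood than in lung. At 14 days against naive, 0 of the 4 ligands at 5 CPM passed 1.5-fold, where 1.33% of genes were higher and 3.94% lower. The log2 ratio was 0.57 for Tnfsf10 (0.32 to 0.83), 0.48 for Ltb (0.35 to 0.61), -0.06 for Fasl (-0.12 to 0.01) and -0.16 for Tnfsf14 (-0.39 to 0.06). Tnf stayed under 5 CPM, with a ratio of 0.65 (0.05 to 1.24). Measured from the median of all genes, the log2 ratios were 0.72 for Tnfsf10, 0.63 for Ltb, 0.09 for Fasl and -0.01 for Tnfsf14. Tnfsf10 and Ltb were then past 1.5-fold. Without the barcodes that carried a UMI of a T, B or myeloid marker, the blood ratios of Ltb and Tnfsf10 were 0.12 and 0.24, whereas in lung both remained past 1.5-fold. Lung and blood were not tested against each other for these ratios.

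At 6 h after inoculation the ligands that stood apart were Ltb, Tnf and Tnfsf14. Ltb was higher than in naive mice in both tissues, with log2 ratios of 0.96 in lung (0.80 to 1.11) and 0.75 in blood (0.64 to 0.87). Tnf was higher in blood by 1.53 (1.05 to 2.03) and differed by 0.13 in lung (-0.48 to 0.76), where it was under 5 CPM. Tnfsf14 was higher in lung by 0.80 (0.50 to 1.10) and by 0.20 in blood, under the fold. With a narrower range of 1200 to 4000 genes a cell and at most 4% mitochondrial counts, the lung ratio of Tnfsf14 was 0.56 and under the fold. Tnfsf10 and Fasl differed by at most 0.13 in size in either tissue. Thus 2 of 4 ligands in lung and 2 of 5 in blood passed the fold upward and none downward. Few genes did so overall: 0.664% were higher and 0.283% lower in lung, and 0.529% higher and 0.432% lower in blood. Without barcodes carrying a UMI of Hspa1a, Hspa1b, Dnajb1, Atf3 or Fosb, a filter added after the data were seen, the blood ratio of Tnf was 2.57. The ratio of Tnf in blood was past 1.5-fold under all 12 alternative settings (1.10 to 2.57). Its level in 6 h blood, 5.12 CPM, was just over the minimum, and under 5 of the 12 settings, that filter included, it was under 5 CPM and Ltb alone was counted.

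**Figure D2:**
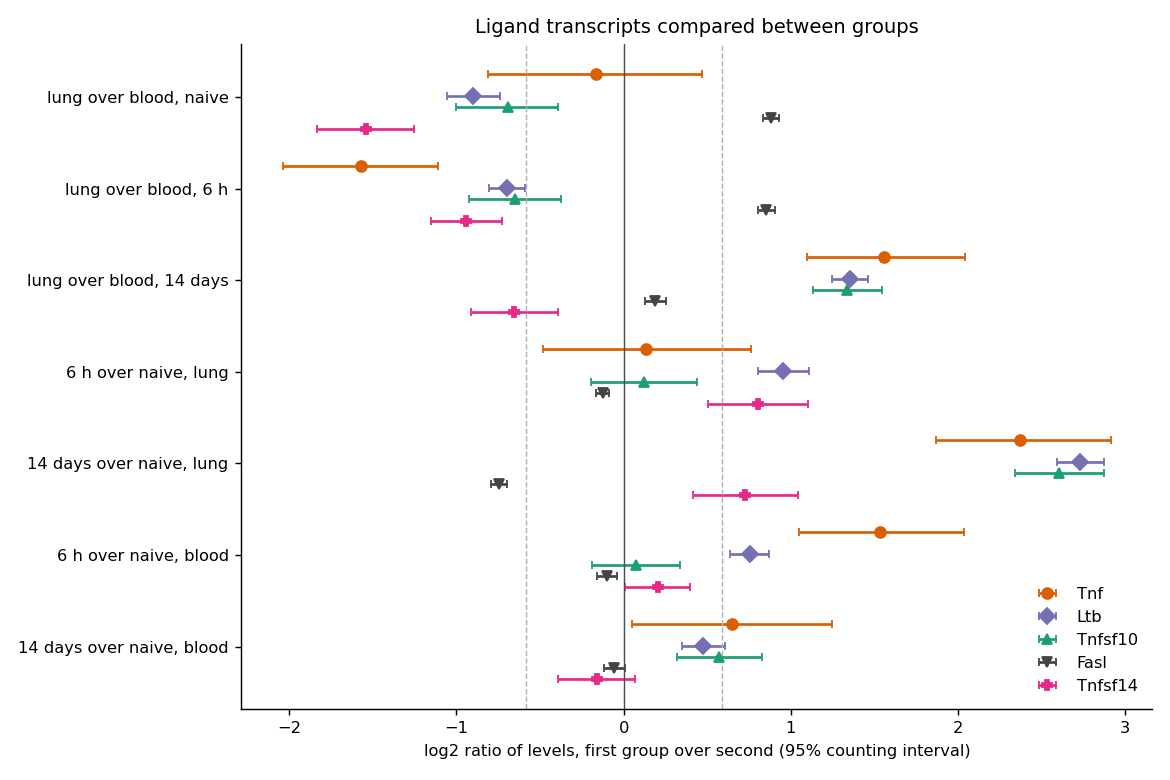
Log2 ratio of summed levels (x axis) for 5 ligands in each of the 7 comparisons (y axis), with 95% counting intervals and dashed lines at 1.5-fold either way. Lta is not drawn because it was at 0 or near 0 in most groups. Ltb and Tnfsf10 lie left of 0 for lung over blood in naive cells (-0.90 and -0.69) and right of it at 14 days (1.35 and 1.34), while the naive interval of Tnf spans 0 (-0.81 to 0.47).

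Within each library, lung and blood cells were processed together after sorting, which takes the library out of the comparison between tissues. Before sorting, lungs were digested with collagenase and DNase, whereas for blood the methods describe red cell lysis without digestion. Tissue and this handling cannot be told apart. In naive mice Fasl was higher in lung by a log2 ratio of 0.88 (0.83 to 0.93), while Tnfsf14 (-1.54, -1.83 to -1.26), Ltb (-0.90, -1.06 to -0.74) and Tnfsf10 (-0.69) were lower. Tnf, under 5 CPM in both tissues, was at -0.17 (-0.81 to 0.47), and at 0.96 without barcodes carrying a UMI of the 5 stress genes named above. That is 1 ligand of 4 higher and 3 lower, where 6.77% of genes were higher and 4.9% lower. At 6 h the order was the same, with Fasl at 0.85, Tnfsf14 at -0.94, Ltb at -0.70 and Tnfsf10 at -0.65, and Tnf was lower in lung at -1.57 (-2.04 to -1.11). Of 5 ligands 1 was higher and 4 were lower, against 6.32% and 4.58% of genes. Tnfsf10 was under 1.5-fold there when centred on the median of genes (-0.55) and without barcodes carrying a UMI of the stress genes (-0.43).

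At 14 days Tnf, Ltb and Tnfsf10 were higher in lung than in blood. The log2 ratio of lung over blood was 1.56 for Tnf (1.10 to 2.04), 1.35 for Ltb (1.25 to 1.46) and 1.34 for Tnfsf10 (1.13 to 1.55). Lta had 58 counts in lung and 1 in blood, a log2 ratio of 5.12 with an interval from 2.59 to 10.5. Tnfsf14 remained lower in lung at -0.65 (-0.91 to -0.39), and Fasl differed by 0.19 (0.13 to 0.25), under the fold. In all, 3 of 5 ligands were higher and 1 lower, against 6.23% and 5.01% of genes. After thinning to 3000 UMIs the ratio of Tnf was 0.65, still past 1.5-fold. Tnfsf14 was under the fold when centred on the median of genes (-0.55), without barcodes carrying a T, B or myeloid marker (-0.56) and with totals that left out mitochondrial and ribosomal protein genes (-0.58).

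Genes that respond to tissue dissociation and red cell genes moved with some of these groups. The list of 10 stress genes summed to 1687 to 1774 CPM in the lung groups and 483 to 534 CPM in the blood groups, at every time. Among them 6 of 8 were higher and 1 lower in lung than in blood by the fold, in naive and in 6 h cells alike. At 14 days 8 of 10 were higher and 0 lower. Of all genes, 6.77%, 6.32% and 6.23% were higher in naive, 6 h and 14-day cells, and 4.9%, 4.58% and 5.01% were lower. The sums were alike between the lung groups, but single genes were not. In 14-day over naive lung 4 of the 10 were higher and 0 lower by the fold, against 5.27% and 11.4% of genes. Hemoglobin genes summed to 89.0 CPM in the 14-day lung and to at most 0.362 CPM elsewhere, and they came from 4 of 3575 cells. Leaving those cells out gave a log2 ratio of 2.73 for Ltb and 2.60 for Tnfsf10 in 14-day over naive lung, as with them. Without the barcodes carrying a UMI of the 5 stress genes, the ratios in that comparison were 2.38 for Ltb, 2.56 for Tnfsf10, 1.75 for Tnf, -0.68 for Fasl and 0.56 for Tnfsf14, the last under the fold. That filter left out 1985 of 3575 cells of the 14-day lung and 1329 of 3676 cells of the naive lung. The Tnf ratio rests on few counts, since naive lung had 37 before the filter. Of the 7 T cell markers, all 4 at 5 CPM (Cd3d, Cd3e, Cd3g and Trac) were higher in 14-day than in naive lung. Cd8a, Cd5 and Cd4 stayed near 0, with 4, 8 and 0 counts in naive lung and 0, 7 and 1 in 14-day lung. Without barcodes carrying a T, B or myeloid UMI the lung over blood ratios at 14 days were 1.78 for Ltb and 1.66 for Tnfsf10. Of the genes of other cell types, the B cell gene Ighm (0.70) and the endothelial gene Pecam1 (0.74) were also higher in 14-day than in naive lung by the fold. Of 3 myeloid genes at 5 CPM in that comparison, Lyz2 was higher (13.5 against 3.37 CPM) and S100a9 was lower (0 against 5.24 CPM). The endothelial genes Cdh5, Cldn5 and Vwf had 33, 32 and 9 counts in the 14-day lung and 0 in the naive lung. Beyond these values, the part of these genes in the results was not tested.

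Fasl and Ltb were spread over the cells in different ways. With each cell at 3000 UMIs, a Fasl UMI was found in 64.3% of naive lung, 61.8% of 6 h lung and 46.3% of 14-day lung cells (44.6% to 47.9%), and in 42.2% to 43.0% of blood cells. The unthinned shares were 67.3% to 87.1%, and free RNA could give a Fasl UMI to at most 2.67% to 9.26% of cells, depending on the group. The variance of Fasl counts over cells was 1.17 to 1.28 times the mean and the 5% of cells with most Fasl held 16.0% to 20.1% of its UMIs. Before thinning Fasl was thus found in most cells of every group, at low counts in each.

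Ltb was found in fewer cells. Its level was below that of Fasl in every group. Shares of cells, and of UMIs in the top cells, also depend on the level of a gene. Its share at 3000 UMIs was 3.62% in naive lung (3.03% to 4.29%), 6.90% in 6 h lung and 15.3% in 14-day lung (14.1% to 16.5%), and 5.96%, 9.79% and 7.32% in naive, 6 h and 14-day blood. Unthinned shares of cells with Ltb were 6.47% in naive and 23.2% in 14-day lung, with free RNA able to give an Ltb UMI to at most 1.56% of cells in any group. The cells with Ltb also held more of it, with a mean of 1.95 UMIs in naive and 4.46 UMIs in 14-day lung before thinning. Variance over mean was 1.58 in naive and 2.92 in 14-day lung, and the 5% of 14-day lung cells with most Ltb held 56.0% of its UMIs. Both the number of Ltb cells and the count in each were therefore higher in the 14-day lung.

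Tnfsf10 was found at 3000 UMIs in 1.62% of naive lung, 1.72% of 6 h lung and 7.27% of 14-day lung cells, and in 2.80%, 2.79% and 3.59% of naive, 6 h and 14-day blood cells. Before thinning the lung shares of Tnfsf10 were 2.99%, 4.19% and 15.7%. Tnf was found at 3000 UMIs in 0.334% of naive and 1.33% of 14-day lung cells, with up to 17 UMIs in a single 14-day lung cell before thinning. Lta was found in 22 of 3537 such cells of the 14-day lung (0.622%) and in 0 of 3590 of naive lung, which allows up to 0.103% of cells. The thinned share of Tnfsf14 was 1.56%, 2.59% and 2.54% in naive, 6 h and 14-day lung and 4.40%, 4.81% and 3.97% in blood. Free RNA could give at most 0.504% of cells for Tnfsf14 and 0.322% for Tnfsf10, as estimated from near-empty barcodes and genes of other cell types. Cells with 2 or more of the 6 ligands made up 4.32% of naive lung (3.68% to 5.03%) and 11.0% of 14-day lung (10.0% to 12.1%).

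**Figure D3:**
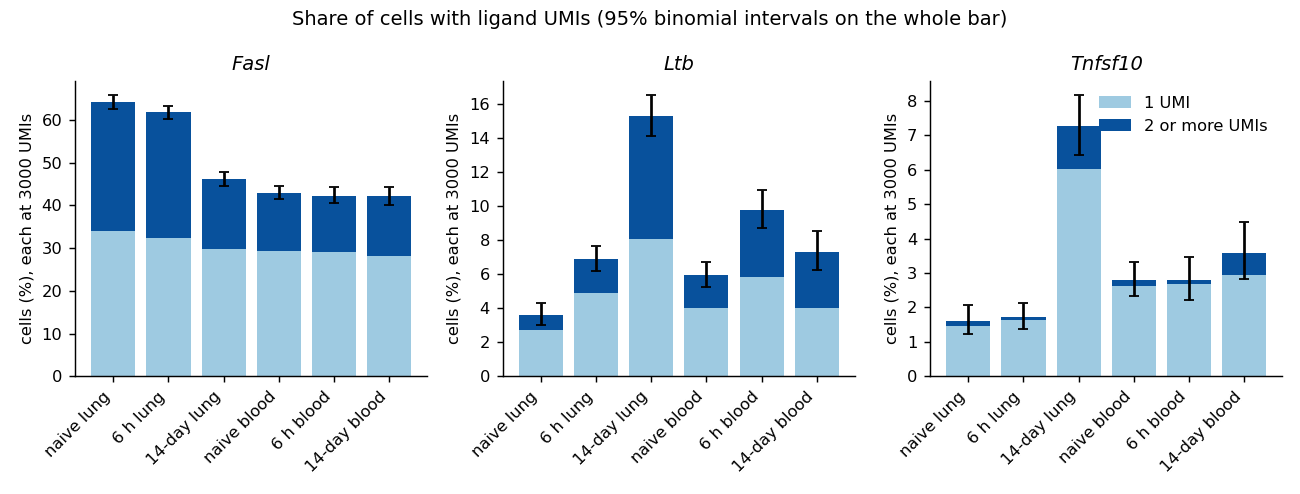
Percent of cells (y axis, from 0) with 1 UMI (light) or 2 or more UMIs (dark) of Fasl, Ltb and Tnfsf10 in the 6 groups, each cell thinned to 3000 UMIs, with 95% binomial intervals on the whole bar. Fasl falls between 42.2% and 64.3% of cells in all groups, whereas Ltb and Tnfsf10 peak at 15.3% and 7.27% in the 14-day lung.

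Next it was asked whether the ligands were found in the same cells of the 14-day lung, again at 3000 UMIs. Of 47 cells with Tnf, 29 (61.7%, 46.4% to 75.5%) also had Ltb, against 14.7% of cells without Tnf. Lta behaved alike, as 15 of its 22 cells (68.2%, 45.1% to 86.1%) had Ltb, against 15.0% of the rest. Ltb was thus found more often in cells with either of its neighbors on chromosome 17 than in cells without. Among the 541 cells with Ltb, 15.9% had Tnfsf10 (12.9% to 19.3%), against 5.71% of cells without Ltb, and in 14-day blood the shares were 19.9% and 2.30%. Fasl went the other way and was found in 34.4% of cells with Ltb (30.4% to 38.6%) and in 48.4% of cells without it (46.6% to 50.2%). The Fasl shares also lay apart in naive blood, at 32.4% with Ltb (26.7% to 38.5%) and 43.7% without it (42.2% to 45.3%), and in 6 h blood, at 31.1% (25.6% to 37.0%) and 43.6% (41.6% to 45.5%). They were 58.5% and 64.5% in naive lung, 59.1% and 62.0% in 6 h lung and 33.1% and 42.9% in 14-day blood, with overlapping intervals in each. Cells of 1 library share their source, so these shares are descriptions.

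**Figure D4:**
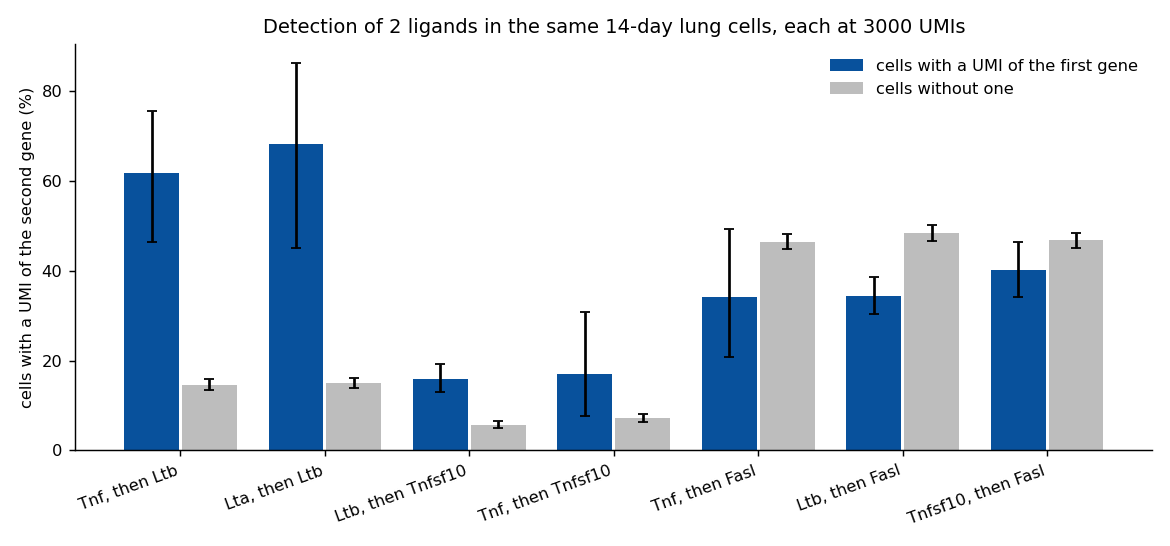
Percent of 14-day lung cells with a UMI of the second gene of each pair (y axis, from 0), in cells with (blue) and without (grey) a UMI of the first, with 95% binomial intervals and each cell at 3000 UMIs. Ltb was found in 61.7% of cells with Tnf and 14.7% of cells without it, whereas Fasl was found in 34.4% of cells with Ltb and 48.4% without.

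The sorted cells were then split by other genes, each at 3000 UMIs and at a threshold of 1 UMI. Such a class is a range of counts and no cell type, since a cell with a single UMI more or less would change class. Cd27 and Itgam (CD11b) mark immature and mature mouse NK cells. At 3000 UMIs 52.7% of 14-day lung cells had neither gene and 9.02% had Cd27 only. The cells with neither held 70.7% of Ltb, 69.6% of Tnf and 63.8% of Tnfsf10 counts there. Cells with Cd27 only held 17.5%, 19.1% and 12.8%. Both classes thus held more of each of these ligands than their share of cells. In naive lung Ltb had 74.7 CPM in the 239 cells with Cd27 only and 8.06 CPM in the 1823 cells with Itgam only, and in 14-day lung 222 CPM (319 cells) and 39.6 CPM (1250 cells). The log2 ratio of Cd27-only over Itgam-only cells in the 14-day lung was 2.49 for Ltb (2.30 to 2.68), 2.45 for Tnf (1.71 to 3.22), 0.89 for Tnfsf10 (0.56 to 1.21) and -0.53 for Fasl (-0.67 to -0.39). In 14-day blood it was 4.19 for Ltb and 3.37 for Tnfsf10. Klrg1, a receptor of terminally mature NK cells, gave the mirror image. In the 14-day lung the 800 cells with Klrg1 had 12.3 CPM of Ltb, 8.75 CPM of Tnfsf10, 0.841 CPM of Tnf and 265 CPM of Fasl, against 164, 42.4, 10.2 and 207 CPM in the cells without it.

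Itga1 (CD49a) and Pmepa1 are genes of tissue-resident and TGF-β exposed lymphocytes. Cells with a UMI of either made up 7.83% of naive lung cells at 3000 UMIs, 34.7% of those from the 14-day lung and 6.83% in blood at 14 days. In the 14-day lung they had 61.2 CPM of Tnfsf10, against 20.9 CPM in the other cells, a log2 ratio of 1.55 (1.37 to 1.74). Their Ltb level was 182 CPM against 104 CPM (0.81, 0.72 to 0.91), and Fasl was 195 against 233 CPM. Tnf did not follow in the 14-day lung, with 7.46 CPM in these cells and 8.60 CPM in the others (-0.20, -0.62 to 0.20). In naive mice Tnf was higher in this class, by 2.45 in lung (1.32 to 3.49) and 2.28 in blood (1.06 to 3.34). These values rest on 12 and 9 Tnf counts in the class. In both 6 h groups and in 14-day blood the interval for Tnf spanned 0. In 14-day blood the same class had 273 CPM of Ltb and 82.1 CPM of Tnfsf10, against 34.8 and 8.83 CPM in the other blood cells. These cells held 62.1% of all Tnfsf10 counts and 49.5% of all Ltb counts of the 14-day lung.

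Because class shares differed between times, the 14-day and naive lung were also compared within classes. Among cells without Itga1 and Pmepa1, the log2 ratio of 14-day over naive lung was 2.53 for Ltb (2.37 to 2.69), 2.05 for Tnfsf10 (1.73 to 2.37), 2.88 for Tnf (2.26 to 3.55) and -0.67 for Fasl (-0.72 to -0.61). Among Itgam-only cells the ratios were 2.30 for Ltb, 2.13 for Tnfsf10, 2.19 for Tnf and -0.57 for Fasl. Ltb and Tnfsf10 were thus higher at 14 days inside both classes as well as in the whole. A cell that expresses Itga1, Pmepa1 or Cd27 can lack a UMI of it after thinning, so a class can hold different cells at each time. These ratios therefore cannot separate a change in the kinds of cells from a change of level within them, which was not tested. Tnfsf14 took different signs, with 0.75 (0.41 to 1.09) in cells without Itga1 and Pmepa1 and -0.55 (-1.16 to 0.05) in Itgam-only cells. In Klrg1 cells the ratio was 1.44 for Ltb (0.86 to 2.06) and 0.84 for Tnfsf10 (0.22 to 1.48), and Tnf had 5 counts at either time.

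Few cells carried 2 of the ILC1 genes Tmem176a, Tmem176b and Cxcr6, but these had the highest levels of Ltb and Tnfsf10 among the classes described. The 37 such cells of the 14-day lung had 887 CPM of Ltb, 169 CPM of Tnfsf10, 19.6 CPM each of Tnf and Lta and 120 CPM of Fasl. The remaining 3500 cells had 121, 33.3, 8.02, 1.81 and 221 CPM. The Tnf and Lta values of the 37 cells rest on 8 counts each, and the interval of the log2 ratio for Tnf was 0.06 to 2.29. The 37 cells had a median of 9948 UMIs, against 7014 in the remaining cells. Whether doublets were among them was not tested. In 14-day blood 27 cells of this kind had 606 CPM of Ltb and 197 CPM of Tnfsf10, against 44.7 and 11.7 CPM in the rest. They held 9.80% of the Ltb counts of the 14-day lung and 14.1% of those of the 14-day blood. Without them the log2 ratio of 14-day over naive lung was 2.68 for Ltb and 2.54 for Tnfsf10.

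Cells with effector and interferon-induced genes showed other mixtures. In the 14-day lung, cells with Ccl3, a chemokine of activated NK cells, had more Fasl (256 against 205 CPM) and Tnfsf14 (13.6 against 7.41 CPM) than cells without it. They had less Ltb (58.5 against 160 CPM) and Tnfsf10 (17.5 against 42.0 CPM). Cells with Ifng likewise had more Tnfsf14 (13.6 against 8.04 CPM) and less Ltb (85.6 against 143 CPM). The 267 cells with 2 of 5 interferon-induced genes (Isg15, Ifit1, Ifit3, Irf7 and Bst2) had 73.7 CPM of Tnfsf10, itself a known interferon target, against 31.8 CPM in other cells, a log2 ratio of 1.21 (0.97 to 1.45). Tnf stood at 17.0 against 7.38 CPM in the same split, and Fasl at 214 against 220 CPM, with an interval of the log2 ratio from -0.18 to 0.09.

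**Figure D5:**
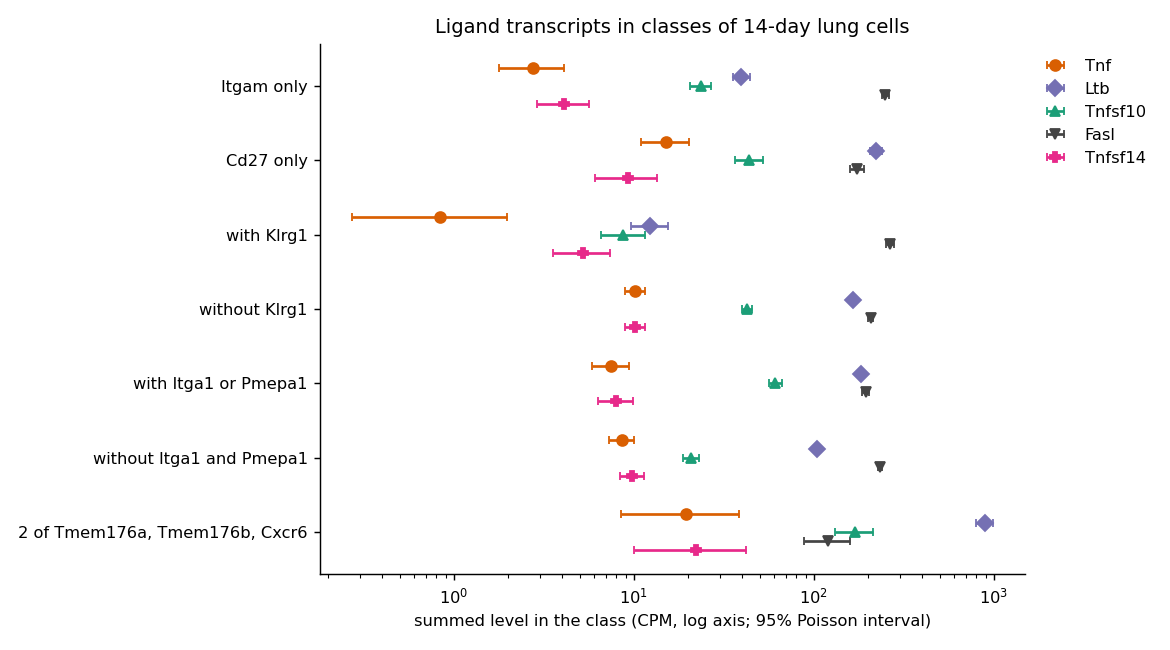
Summed level in CPM (log x axis) of Tnf, Ltb, Tnfsf10, Fasl and Tnfsf14 in classes of 14-day lung cells defined by UMIs of other genes (y axis), with 95% Poisson intervals. Ltb runs from 12.3 CPM in cells with Klrg1 to 887 CPM in cells with 2 of Tmem176a, Tmem176b and Cxcr6, and Fasl runs the opposite way, from 265 to 120 CPM.

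Few genes of the receptors for these ligands were well detected in the NK cells themselves. Of 9 receptor genes 3 reached 5 CPM, namely Tnfrsf1a, Tnfrsf1b and Fas. Tnfrsf1b (TNFR2) was the 1 receptor that passed the fold between tissues, at 164 CPM in naive lung and 74.0 CPM in naive blood, a log2 ratio of 1.15, with 0.99 at 6 h and 1.03 at 14 days. Tnfrsf1a had 22.6 to 33.8 CPM and Fas 6.44 to 12.1 CPM over the groups, and neither passed the fold in any of the 7 comparisons. Ltbr, the receptor of membrane lymphotoxin, had at most 0.362 CPM. None of the 3 receptors passed the fold between times.

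Of 12 other ligands of the family, 3 at most reached 5 CPM in a comparison. Tnfsf8 (CD30 ligand) resembled Tnf and Ltb, with 2.09 CPM in naive lung, 10.5 CPM in 14-day lung and 5.43 CPM in 14-day blood. Its log2 ratio was 2.33 for 14-day over naive lung and -1.34, -1.55 and 0.95 for lung over blood in naive, 6 h and 14-day cells. Tnfsf4 (OX40 ligand) was higher in lung at every time, by 2.52, 1.41 and 2.43. Tnfsf12 (TWEAK) was lower in lung at 14 days by -0.62.

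Among 28 genes of signalling and feedback below these receptors, 7, 9 and 9 were higher in lung than in blood in naive, 6 h and 14-day cells, and 2, 2 and 0 were lower. Of all genes, 6.77%, 6.32% and 6.23% were higher and 4.9%, 4.58% and 5.01% lower. Tnfaip3 (A20), an inhibitor of NF-κB induced by TNF, had log2 ratios of 3.16, 3.07 and 2.85. Nfkbia, Nfkbiz, Relb, Rel, Birc2 and Birc3 were higher in lung at all 3 times as well, and the same stress genes that were higher in lung, given above, stand beside them. Between times this list differed less: 0 of 28 were higher and 1 (Ripk1, -0.68) lower in 14-day over naive lung, and 0 passed in blood. Of all genes, 5.27% were higher and 11.4% lower in that lung comparison, and 1.33% and 3.94% in blood. At 6 h, Nfkb2 (0.74), Traf1 (0.61) and Nfkbie (0.59) were higher than in naive lung, and Nfkb2 (0.59) in blood. Its median for 14-day over naive lung was -0.11, against -0.18 for all genes.

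Of 10 genes for ligand shedding and decay of ligand mRNA, Zfp36l2 was higher in lung at all times (1.65, 1.65 and 1.29) and Zfp36l1 at 14 days (1.28). Zc3h12a (Regnase-1), which cleaves cytokine mRNA, was higher in lung by 0.71, 0.76 and 0.75. Adam10 and Adam17, the sheddases of Fas ligand and TNF, passed the fold in none of the comparisons. Of 20 transcription factor genes, 5 were higher and 2 lower in 14-day over naive lung, against 5.27% and 11.4% of all genes. The higher genes were Egr2 (2.13), Fosb (1.73), Myc (1.28), Egr3 (1.19) and Jun (1.03). Foxo1 (-0.95) and Stat4 (-0.96) were lower. Fosb is also 1 of the 5 stress genes named above. In 14-day over naive blood 0 were higher and 5 were lower (Fos, Egr1, Fosb, Egr2 and Egr3), against 1.33% and 3.94% of all genes.

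Finally, the genes whose level followed each ligand most closely over the 6 groups were listed among 2527 genes, by Pearson's r of log2 CPM. The 6 groups come from 3 libraries, and many genes reach a high r over 6 points. Ltb was most like Myc (r = 0.98), a growth regulator that stood at 16.9 CPM in naive and 41.2 CPM in 14-day lung, and Eef1g (0.98). Tnfsf10 was most like 2900026A02Rik (1.00) and Hvcn1 (0.99), a proton channel gene. Tnf was most like Vars (0.91) and Sdhaf1 (0.91), the latter also near the top for Ltb (0.97). Fasl was closest to Slc25a16 and the adaptor gene Sla2 (1.00 each), and 394 genes had an r of at least 0.9 with it. Tnfsf14 was closest to Nudt5 and Prmt5 (1.00 each). Lta was at 0 in a group and was not compared.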

How the data were processed

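The authors deposited raw UMI counts per gene and barcode, before cell calling, from a 3′ droplet kit. Per the labels, reads were processed with Cell Ranger 7.0.1 (the matrix header names 7.1.0) on GRCm38.p6. The ligands and gene lists were chosen with earlier results of these data known. Barcodes with 800 to 5000 genes, at most 6% mitochondrial counts and at least 90% of hashtag counts from 1 tag were kept, and no doublet caller was run, although barcodes with mixed tags were left out. Counts were summed per group and scaled to CPM with exact Poisson intervals. Ratios have an exact interval conditional on the summed counts, and shares an exact binomial (Clopper-Pearson) interval. With 1 library a group there is no test. Free RNA was bounded from barcodes with at most 100 UMIs. For shares, cells were thinned at random to 3000 UMIs, and 6 to 86 shallower cells a group were left out. Named are all 6 ligands, listed genes past 1.5-fold, the leading list genes, and the 2 most alike genes per ligand; Sdhaf1 beside Ltb was added after its value was seen. Ratio and thinning code was tested on simulated data. Python 3.11.15, numpy 2.4.6 and scipy 1.17.1 were used.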

Additional observations from a re-analysis of the deposited data

Results flagged for a closer look

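With 1 library a group, no value could be set against other samples of its group. The contrast of lung over blood took opposite signs at different times for 3 ligands, with counting intervals away from 0 at both times. Ltb had a log2 ratio of -0.90 in naive, -0.70 in 6 h and 1.35 in 14-day cells. Tnfsf10 had -0.69, -0.65 and 1.34. Tnf had -1.57 at 6 h and 1.56 at 14 days. Whether the contrast differed between times was not tested, since no time point has a second library.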

How the results depend on the processing

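Every comparison was repeated under 10 planned settings and under 2 added after seeing the data, which left out barcodes with red cell or with stress genes. No called ligand changed direction. Of 468 alternative ratios, 420 stayed within their counting error and 48 moved. The setting with no filter on low values cannot change a ratio, and the red cell filter left out 0 to 5 cells a group. Ratios under these settings are part of the 420 almost by construction. The number of ligands past 1.5-fold was within 1.5 times the main count except as follows. For 6 h over naive lung it was 1 in place of 2 with 1200 to 4000 genes and at most 4% mitochondrial counts. For 6 h over naive blood it was 1 in place of 2 with that filter, after thinning, without the 5% of cells with most UMIs, with each cell weighing the same and without stress gene barcodes. For 14-day over naive blood it was 1 in place of 0 after thinning, without the 5% of cells with most UMIs, without stress gene barcodes and with totals that left out mitochondrial and ribosomal protein genes, and 2 when centred on the median of genes or with no filter on low values. For lung over blood at 6 h it was 3 in place of 5 without stress gene barcodes. No paired analysis was possible because each group has 1 library. Depth limits Lta in every group but the 14-day lung, and Tnf in naive cells.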
